A study of Homo sapiens with 4 samples.

Results

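The genes described here are 10 genes that are widely used as readouts of the transcription factors TEAD and their coactivators YAP and TAZ. They were listed by symbol (CCN1 and CCN2 are also known as CYR61 and CTGF), and each was read from the brightest probe set that the platform annotation gives it. The genes were selected on their changes with the mimic on these same arrays and on their known roles, so the changes with the mimic are given as a description, with no test. Of the 10 genes, 9 had a probe set, each had 1, and all 9 were among the 12381 genes kept for testing, out of 17687 named genes. The level of AMOTL2, an angiomotin-like protein that binds YAP, was not analysed here, and the gene enters the promoter search alone.

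The arrays came from established lines of human liver cancer, HEP-G2 and Li-7. Cells were given a mimic of miR-4730, a microRNA, at a final 3 nM by lipid transfection 24 h after seeding, or else a negative control oligonucleotide. The groups were Li-7 with the miR-4730 mimic, Li-7 with the negative control, HEP-G2 with the mimic and HEP-G2 with the negative control, each with 1 Affymetrix array. No untreated cells are among the groups, and each array averages a whole culture, so a change in all cells and one in some of them cannot be told apart. Li-7 was grown in RPMI-1640 and HEP-G2 in DMEM, so line and medium cannot be told apart. The mature microRNA that the mimic stands for is shown with its seed (bases 2 to 8) in capitals, as RefSeq gives it on GRCh38.p14 (chr17:80419427-80419449, plus strand).
hsa-miR-4730: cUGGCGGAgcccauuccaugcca

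The Hippo pathway is a kinase cascade in which LATS kinases phosphorylate YAP and TAZ and hold them in the cytoplasm. Unphosphorylated YAP and TAZ enter the nucleus, bind TEAD factors on DNA and switch on genes of growth, matrix and cell shape. AP-1 factors often sit beside TEAD at such genes, and serum response factor acts on several of the same genes. In the liver the pathway restrains organ size, and YAP is active in many liver cancers.

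Values are summarised probe-set values as deposited, read as log2, and a change is mimic minus control. With 1 array in each group no spread between cultures was measured, and the number of arrays limits the precision. The level that 612 negative control probe sets reached at their 95th percentile, used here as a mark of background, lay at 7.99 on the Li-7 mimic, 8.72 on the Li-7 control, 8.20 on the HEP-G2 mimic and 8.35 on the HEP-G2 control array. Medians of all probe sets ran from 7.03 to 7.17. HMGA1, the target the study names, stood at 10.91 with the mimic and 14.93 with the control in Li-7 cells, and at 11.61 and 14.79 in HEP-G2. Of 9 liver markers measured, HEP-G2 held all 9 above background on both arrays, whereas Li-7 held 1 (SERPINA1) with the mimic and 0 with the control, so albumin, alpha-fetoprotein and the apolipoproteins were at background in Li-7 cells. Of 10 markers of blood, endothelial and stromal cells, 0 lay above background on any array.

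The promoters of 7 of the 10 genes were in the RefSeq table (GRCh38.p14), in 10 windows of 300 bases that run from 250 bases before to 50 after a start site. CCN2, ANKRD1 and F3 are shown because their changes with the mimic were positive and at least 2-fold in HEP-G2 but negative in Li-7 cells. Capitals mark the TEAD motif GGAATG and the AP-1 motif TGANTCA, each searched on both strands. The CCN2 window is chr6:131951323-131951622, the ANKRD1 window chr10:90921038-90921337 and the F3 window chr1:94541710-94542009, all on the minus strand and written 5′ to 3′ along the gene.
CCN2: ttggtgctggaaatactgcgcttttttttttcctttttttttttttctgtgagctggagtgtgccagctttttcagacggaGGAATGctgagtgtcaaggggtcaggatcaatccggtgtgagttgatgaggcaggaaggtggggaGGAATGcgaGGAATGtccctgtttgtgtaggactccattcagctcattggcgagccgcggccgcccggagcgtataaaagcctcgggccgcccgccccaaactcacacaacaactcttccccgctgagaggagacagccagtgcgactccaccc
ANKRD1: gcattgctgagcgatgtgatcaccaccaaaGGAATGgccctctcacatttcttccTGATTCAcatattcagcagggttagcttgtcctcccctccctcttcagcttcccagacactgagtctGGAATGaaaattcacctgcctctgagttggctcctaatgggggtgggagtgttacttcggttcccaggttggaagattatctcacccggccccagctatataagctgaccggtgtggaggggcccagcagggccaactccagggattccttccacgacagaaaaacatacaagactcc
F3: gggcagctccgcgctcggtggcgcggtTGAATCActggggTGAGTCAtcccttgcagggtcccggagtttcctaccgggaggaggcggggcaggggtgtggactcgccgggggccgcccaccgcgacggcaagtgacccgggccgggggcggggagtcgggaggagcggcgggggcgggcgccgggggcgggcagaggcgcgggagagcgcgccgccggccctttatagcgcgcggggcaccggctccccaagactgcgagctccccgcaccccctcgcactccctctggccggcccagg

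The CCN2 window held 3 TEAD matches, which began 169, 104 and 95 bases before the start. ANKRD1 held 2, at 220 and 128 bases before the start, with an AP-1 match between them at 195. F3 held 2 AP-1 matches, at 223 and 210, and no TEAD match. One start of AXL, one of AJUBA and one of AMOTL2 each held 1 TEAD match, at 212, 59 and 69 bases before the start. In all, 5 of the 7 genes held a TEAD match in at least 1 window. Counted by window, 5 of the 10 did, against 14.03% of all 35116 promoter windows in the table. The genes were listed in part as known readouts of TEAD, so nothing is read from the TEAD share. AP-1 matches were in 2 of the 10 windows, against 7.7% of all windows. The CArG box of serum response factor was in 0 of the 10, against 1.3%. No match overlapped another. These are letter matches in short windows, and TEAD acts largely through distant enhancers, which were not searched.

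**Figure D1:**
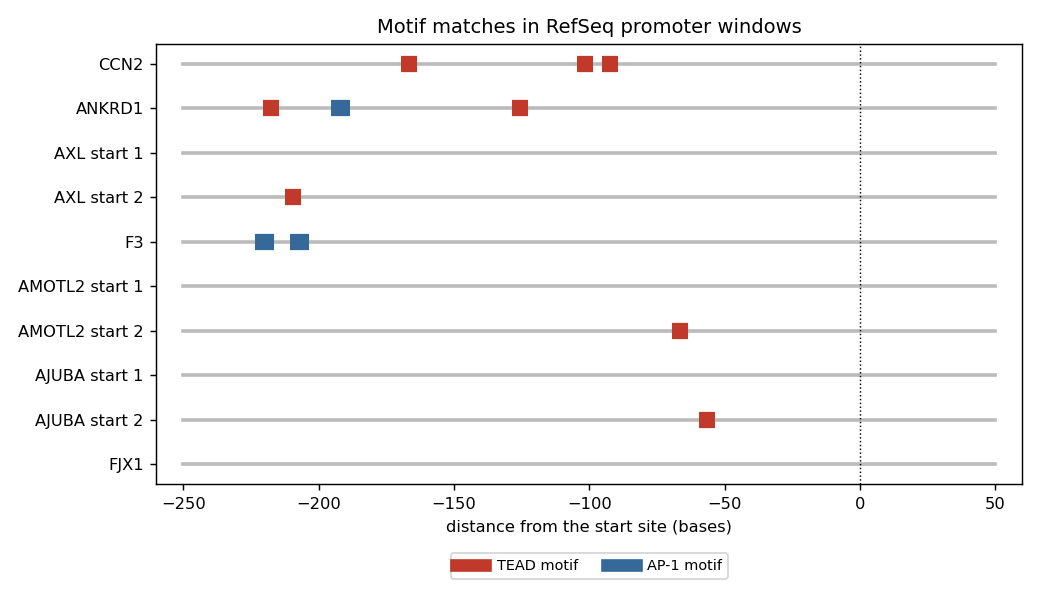
Positions of the TEAD motif (red) and the AP-1 motif (blue) in the 10 promoter windows of 7 genes, as distance in bases from the start site (dotted line). CCN2 holds 3 TEAD matches and ANKRD1 holds 2 with an AP-1 match between them, while the windows of FJX1 and 1 start each of AXL, AMOTL2 and AJUBA hold none.

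In HEP-G2, 7 of 9 target genes had a positive change with the mimic, against 51.2% of all genes tested. There 6 were at least 2-fold higher, namely CCN1, CCN2, ANKRD1, AXL, CRIM1 and F3. The median change was 1.34, against 0.02 over all genes tested, of which 5.77% were at least 2-fold higher in that line. In Li-7, 5 of 9 had a positive change, against 51.8% of all genes tested. There 3 were at least 2-fold higher, namely CCN1, AJUBA and ARHGEF17, against 3.72% of all genes. The Li-7 median was 0.92 against 0.02. No member was at least 2-fold lower in either line, where 6.28% (HEP-G2) and 4.12% (Li-7) of all genes were. Since the list was chosen with these changes in view, nothing is read from the counts. CCN1 was the 1 gene at least 2-fold higher in both lines as deposited. Its HEP-G2 control value lay under background. With every value raised to a common floor of 8.72, the highest of the 4 background marks, its HEP-G2 change was 0.99. At that floor 0 genes reached 2-fold in both lines. That count rests on the choice of floor, since 0.99 is just under the limit and the HEP-G2 marks were lower (8.20 and 8.35).

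**Figure D2:**
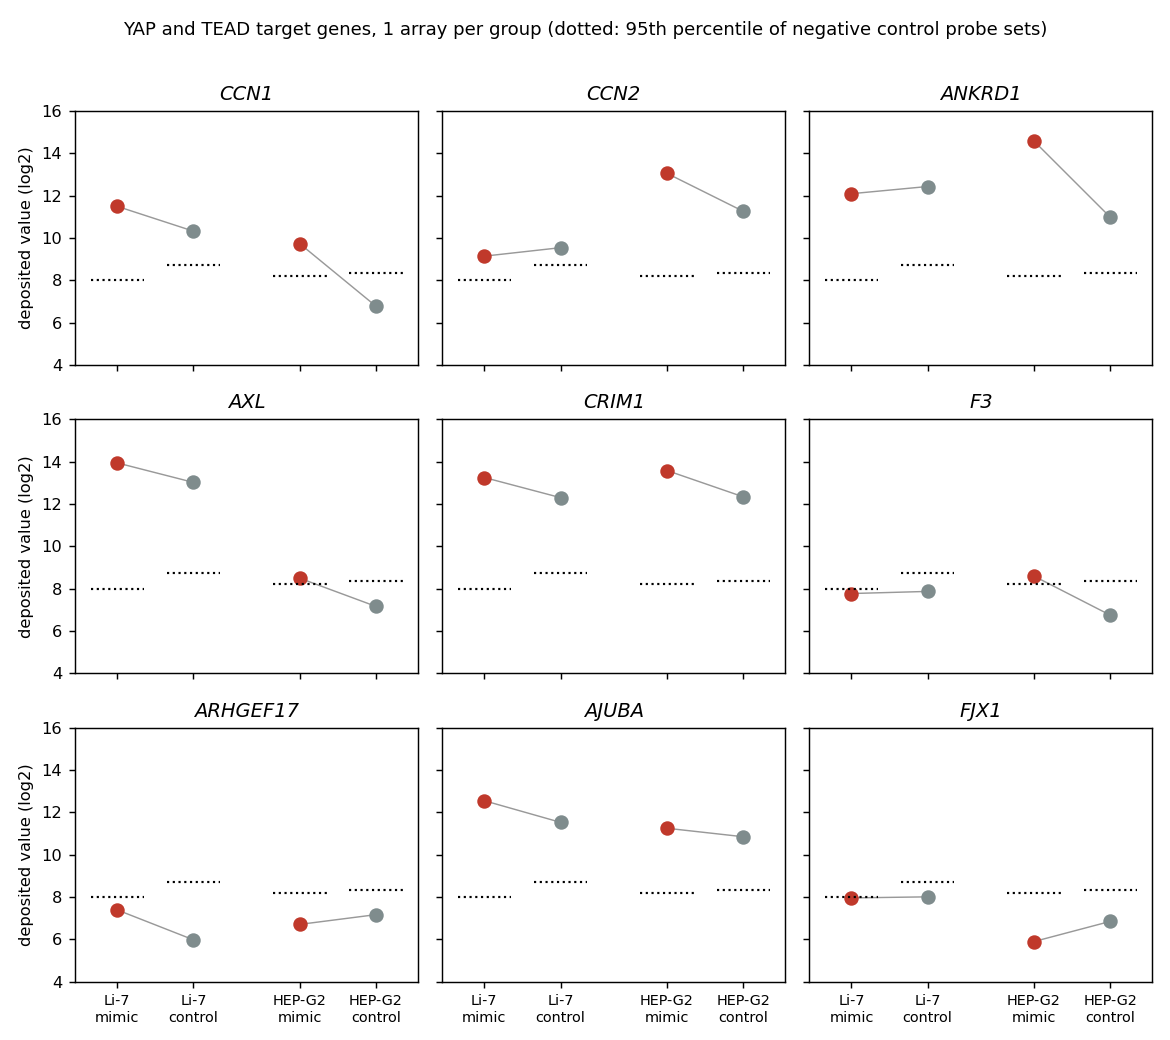
Deposited values (log2) of the 9 target genes on the 4 arrays, mimic in red and negative control in grey, 1 array per group. Dotted marks give each array's background mark from its negative control probe sets. CCN2, ANKRD1, CRIM1 and AJUBA lie above it on all arrays, while ARHGEF17 and FJX1 lie under it on all. Heights of different genes come from different probe sets and are not compared.

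Among the secreted products, CCN1 and CCN2 are matricellular proteins that bind integrins and are the classical YAP targets. CCN1 stood at 11.49 with the mimic and 10.32 with the control in Li-7 cells, and at 9.72 and 6.77 in HEP-G2. Its change was thus 1.17 in Li-7 cells (2.25-fold on the deposited scale) and 2.95 in HEP-G2 (7.72-fold), rank 8 from the highest of all genes in that line. The HEP-G2 control value lay under background, so the size of the change there rests on it.

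CCN2 stood at 9.14 with the mimic and 9.54 with the control in Li-7 cells, and at 13.05 and 11.26 in HEP-G2. Its change was -0.40 in Li-7 cells and 1.79 in HEP-G2 (3.46-fold), and all 4 values lay above background. The pair therefore had positive changes together in HEP-G2 and changes of unlike sign in Li-7 cells. FJX1, the human homologue of the fly gene four-jointed, which acts with Fat and Dachsous in planar polarity there, stood at 7.96 with the mimic and 8.01 with the control in Li-7 cells. In HEP-G2 it stood at 5.90 and 6.85. It was the 1 gene of the 9 with a negative change in both lines (-0.05 and -0.96), and all of its values lay under background.

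The membrane proteins were AXL, a receptor tyrosine kinase for GAS6, CRIM1, a transmembrane protein that binds bone morphogenetic proteins, and F3, tissue factor, which starts coagulation. AXL stood at 13.94 with the mimic and 13.02 with the control in Li-7 cells, and at 8.49 and 7.16 in HEP-G2, where the control value was under background. Its changes were 0.92 and 1.34. CRIM1 stood at 13.25 with the mimic and 12.30 with the control in Li-7 cells, and at 13.58 and 12.34 in HEP-G2. Its changes of 0.94 and 1.24 (1.92-fold and 2.36-fold) were the most alike of the 9 genes between the lines, and all 4 values lay well above background. F3 stood at 7.77 with the mimic and 7.87 with the control in Li-7 cells, both under background, and at 8.59 and 6.75 in HEP-G2, where the mimic value alone was above it. Its changes were -0.09 and 1.84. With the common floor of 8.72 the HEP-G2 changes of AXL and F3 were both 0, so their sizes rest on values near background.

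Inside the cell, ANKRD1 is an ankyrin repeat protein of muscle and nucleus, AJUBA a LIM-domain scaffold that binds LATS kinases, and ARHGEF17 an exchange factor that activates RhoA. ANKRD1 stood at 12.09 with the mimic and 12.43 with the control in Li-7 cells, and at 14.57 and 10.98 in HEP-G2. Its change was -0.35 in Li-7 cells and 3.58 in HEP-G2 (12.0-fold), rank 3 from the highest of all genes there, with all 4 values above background. AJUBA stood at 12.55 with the mimic and 11.53 with the control in Li-7 cells, and at 11.25 and 10.85 in HEP-G2. Its changes were 1.02 and 0.40, the larger one in Li-7 cells. ARHGEF17 stood at 7.39 with the mimic and 5.98 with the control in Li-7 cells, and at 6.71 and 7.17 in HEP-G2. Its changes were 1.40 and -0.46, but all 4 values lay under background, and with the common floor both were 0.

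**Figure D3:**
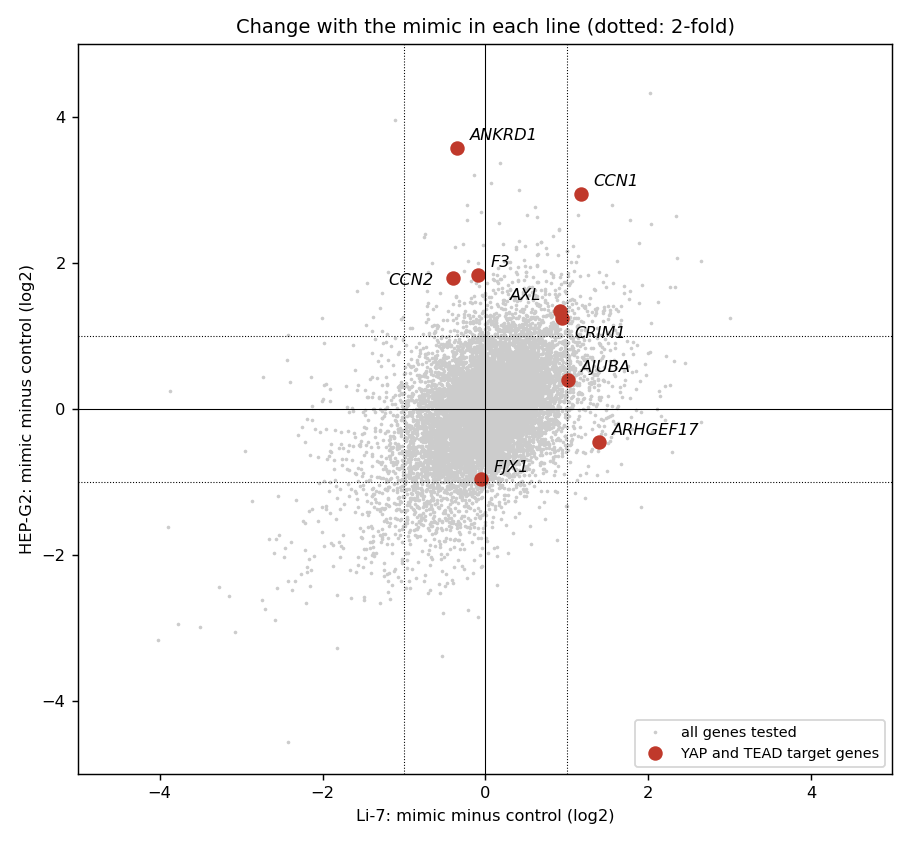
Change with the mimic in Li-7 cells (horizontal) against HEP-G2 (vertical), mimic minus control in log2, for the 12381 genes tested (grey) and the 9 target genes (red), with 2-fold limits dotted. ANKRD1 lies at -0.35 and 3.58, CCN1 at 1.17 and 2.95, and ARHGEF17 at 1.40 and -0.46.

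The signs of the changes were set side by side for the 9 genes. AXL, CRIM1, CCN1 and AJUBA had positive changes in both lines, CCN2, ANKRD1 and F3 had positive changes in HEP-G2 and negative ones in Li-7, ARHGEF17 the other way round, and FJX1 negative ones in both. Opposite signs in the lines were thus seen for 4 of 9 genes (44.4%), against 34.9% of all genes tested, and nothing is read from that count. The Li-7 changes of CCN2, ANKRD1 and F3 were small (-0.40, -0.35 and -0.09), and every ARHGEF17 value was under background. For ANKRD1 the change in HEP-G2 exceeded that in Li-7 by 3.93 and for CCN2 by 2.19, with all values above background. The differences of 1.93 for F3 and 1.78 for CCN1 rest on HEP-G2 control values under background, and both Li-7 values of F3 were under it too. With the common floor both F3 changes were 0, and the CCN1 change was 0.99 in HEP-G2 and 1.17 in Li-7, so that its order turned. That floor is the Li-7 control mark, and both HEP-G2 marks lay lower (8.20 and 8.35), so the turned order of CCN1 rests on the choice of floor. With 1 array per treatment in a line, no test of these differences was possible. The common floor of 8.72 leaves 3 genes at least 2-fold higher in HEP-G2 (CCN2, ANKRD1 and CRIM1) and 2 in Li-7 cells (CCN1 and AJUBA). The share of all genes that reach 2-fold at that floor is not given here, so nothing is read from these counts.

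The difference between the lines was the contrast that the choice of genes did not use, and it was tested over all 4 arrays with treatment in the model (limma, Benjamini-Hochberg over 12381 genes, threshold 0.05). AXL was lower in HEP-G2, at a mean of 7.82 against 13.48 in Li-7, a difference of -5.65 (SE 0.26, 2 arrays per line; limma's adjusted p = 7.48e-06). CCN1 was lower in HEP-G2 as well, at 8.24 against 10.91 (difference -2.67, SE 0.42, limma's adjusted p = 0.00211). FJX1 (-1.61, SE 0.30, limma's adjusted p = 0.00454) and AJUBA (-1.0, SE 0.27, limma's adjusted p = 0.0221) were also lower in HEP-G2. Every FJX1 value was under background, as were the HEP-G2 control values of AXL (7.16) and CCN1 (6.77). The sizes of those differences rest in part on such values. CCN2 went the other way, at a mean of 12.16 in HEP-G2 against 9.34 in Li-7 cells (difference 2.82, SE 0.48, limma's adjusted p = 0.00318).

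In all, 5 of the 9 genes were called, 1 higher and 4 lower in HEP-G2, while 44.9% of all genes tested were called between the lines. The share of target genes was thus near the background. CRIM1 (0.19), F3 (-0.15), ARHGEF17 (0.25) and ANKRD1 (0.52) did not pass. The ANKRD1 value averages over a change of order, since on the control arrays it was lower in HEP-G2 by 1.45 (10.98 against 12.43) and on the mimic arrays higher there by 2.48 (14.57 against 12.09). The spread in this test comes from how unlike the mimic changes of the lines were, with 1 residual degree of freedom per gene. Most of its weight lies on the spread shared by all genes tested (5.85 prior degrees of freedom). An SE is therefore not that gene's own spread. An ordinary t statistic called 0 of the 9 (1 at an unadjusted p under 0.05), and leaving treatment out of the model called 3, losing CCN1 and AJUBA.

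**Figure D4:**
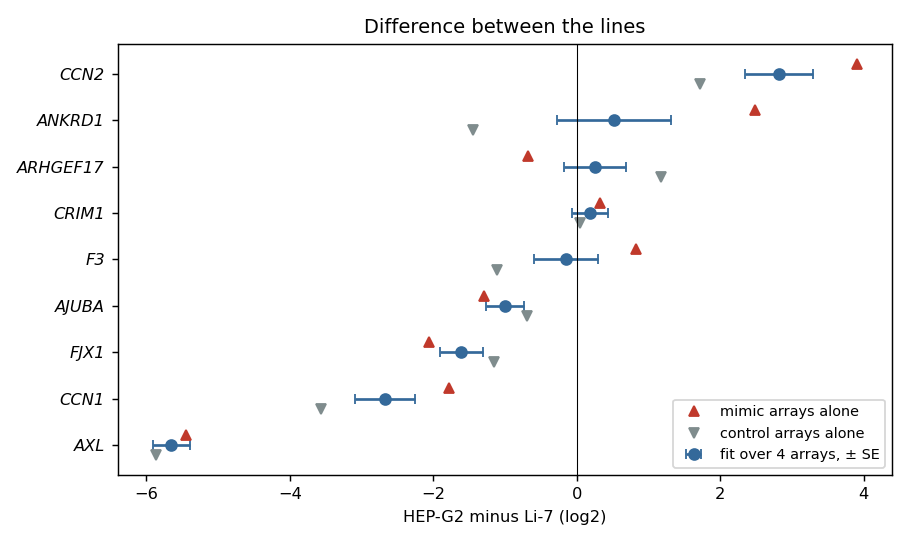
Difference between the lines, HEP-G2 minus Li-7 in log2, for the 9 target genes from the fit over 4 arrays (blue, with SE), from the mimic arrays alone (red triangles) and from the control arrays alone (grey triangles). AXL lies lowest at -5.65 and CCN2 highest at 2.82, and the triangles of ANKRD1, F3 and ARHGEF17 fall on opposite sides of 0.

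The factors that act on these genes gave a mixed picture. TEAD4, a TEAD factor, was lower with the mimic as deposited, at 6.39 against 8.60 in the control in Li-7 cells and at 5.91 against 8.58 in HEP-G2. Its mean change was -2.44 (SE 0.26, limma's adjusted p = 0.0296), with every value but the HEP-G2 control under background. All of its values lay under the common floor of 8.72, which leaves no change in either line. The other TEAD factors did not pass, with mean changes of 0.30 for TEAD1 and 0.11 for TEAD3, while TEAD2 stood at -0.76 in Li-7 cells and, with both values under background, at -1.24 in HEP-G2. YAP1 stood at 12.28 with the mimic and 11.63 with the control in Li-7 cells, and at 11.85 and 11.70 in HEP-G2. WWTR1, which encodes TAZ, stood at 10.90 and 10.33 in Li-7 cells and at 10.53 and 9.98 in HEP-G2. Neither passed (mean changes 0.40 and 0.56, limma's adjusted p = 0.457 and 0.271).

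VGLL3, a cofactor that binds TEAD in place of YAP, stood at 8.85 with the mimic and 9.60 with the control in Li-7 cells, and at 6.32 and 3.96 in HEP-G2, where both values were under background. Of the 8 TEAD factors and cofactors tested, 1 passed as lower (TEAD4) and 0 as higher (median mean change 0.21). Of 15 Hippo kinases and upstream regulators, 0 passed, and the median was 0.19. At an unadjusted p under 0.05, 2 of them were higher, while 9.75% of all genes tested were higher and 9.71% lower at that limit. PTPN14, a phosphatase that binds YAP and is itself a target gene, stood at 0.95, and WWC1, the scaffold KIBRA, at 0.79. Both are also counted in the lists of target genes below, so their values enter more than 1 list. SAV1, the MST scaffold, stood at -0.37 with all values under background, and MAP4K4, a kinase upstream of LATS, at 0.27. Over all genes tested the median mean change was 0.03, 52.6% had a positive one, and 0.0808% passed as higher and 0.339% as lower.

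The remaining genes of a published YAP and TAZ signature, from which most of the 10 genes also come, were counted as a set. Of the 9 tested, 8 had a positive mean change (median 0.79), against 52.6% of all genes. At an unadjusted p under 0.05, 5 were higher and 0 lower, against 9.75% and 9.71% of all genes. After adjustment 1 passed as higher, against 0.0808% of all genes. That was NT5E, the surface enzyme CD73, which stood at 15.78 with the mimic and 13.13 with the control in Li-7 cells and at 15.15 and 13.12 in HEP-G2, all above background (mean change 2.34, SE 0.27, limma's adjusted p = 0.0311). MYOF, myoferlin, a membrane repair protein, stood at 1.02, PTPN14 at 0.95 and NUAK2, an AMPK-related kinase, at 0.84, none passing. MYOF was under background on the HEP-G2 control array and NUAK2 on every array but the Li-7 mimic.

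Of 17 further genes described as YAP or TAZ targets, 0 passed, and 12 had a positive mean change (median 0.55), against 52.6% of all genes. At an unadjusted p under 0.05, 5 were higher and 3 lower, against 9.75% and 9.71% of all genes. Of the 4 with the largest mean changes, the cell cycle genes BIRC5, survivin (-1.53), and CDC6, a replication licensing factor (-1.14), had negative values, and the matrix genes TNC, tenascin C (1.24), and THBS1, thrombospondin 1 (0.94), positive ones. TNC stood at 2.65 in Li-7 cells and -0.18 in HEP-G2, where it was under background on both arrays, as was THBS1. The Li-7 control value of TNC was under background too. Both signature and further targets were listed with results of these arrays known.

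**Figure D5:**
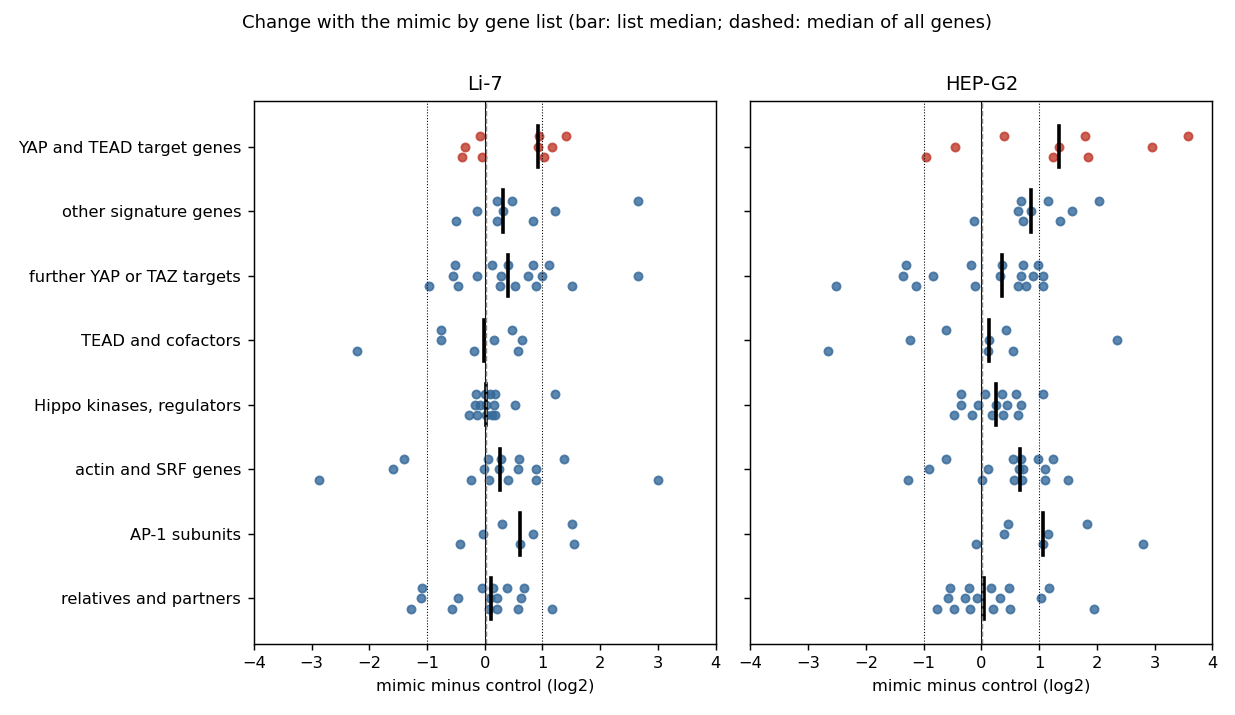
Change with the mimic (mimic minus control, log2) for each tested gene of the 9 target genes (red) and of the 7 other lists (blue), in Li-7 cells (left) and HEP-G2 (right). Black bars are list medians, the dashed line is the median of all genes and dotted lines mark 2-fold. The target genes have medians of 0.92 and 1.34 and the AP-1 subunits of 0.61 and 1.06.

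AP-1 subunits, the usual partners of TEAD, had positive mean changes as well. All 7 tested had a positive mean change (median 0.73), as did 52.6% of all genes, and 0 passed. In the single lines, 4 were positive in both (57.1%, against 34.1% of all genes) and 3 had opposite signs (42.9%, against 34.9%). No subunit tested lay above background on all 4 arrays. At an unadjusted p under 0.05, 4 were higher, against 9.75% of all genes. JUN stood at 10.37 with the mimic and 8.82 with the control in Li-7 cells, and at 7.99 and 5.19 in HEP-G2, both of these under background. Its mean change was 2.18 (limma's adjusted p = 0.0601). FOSL1 stood at 1.33 and FOSL2 at 0.73, each under background on the HEP-G2 control array, and JUNB at 1.29, under it on all arrays.

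Of 16 actin and serum response factor genes tested, 13 had a positive mean change (median 0.45), against 52.6% of all genes, and 0 passed. At an unadjusted p under 0.05, 5 were higher and 3 lower, against 9.75% and 9.71% of all genes. FILIP1L (2.13) and FHL2, a LIM-only coactivator (1.24), stood high, and CNN2, a calponin (-2.07), and ACTB, beta-actin (-1.24), stood low. FILIP1L was under background on the Li-7 control array.

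Relatives and partners of the 9 genes gave a median of 0.09 over 16 tested, with 9 positive, against 52.6% of all genes, and 0 passing. At an unadjusted p under 0.05, 3 were higher and 2 lower, against 9.75% and 9.71% of all genes. TFPI, the inhibitor of the tissue factor pathway, stood at 15.38 with the mimic and 14.75 with the control in Li-7 cells, and at 14.29 and 12.34 in HEP-G2, so that its changes of 0.63 and 1.95 lay beside -0.09 and 1.84 for F3. All TFPI values lay above background, while F3 was above it on the HEP-G2 mimic array alone. With the common floor the HEP-G2 change of F3 was 0. F7, the factor that tissue factor activates, stood at 0.93, with its HEP-G2 mimic value alone above background. TYRO3, a receptor of the AXL family, stood at 1.16 in Li-7 cells and 1.03 in HEP-G2, beside 0.92 and 1.34 for AXL. TYRO3 was above background on the Li-7 mimic array alone, and AXL was under it on the HEP-G2 control array. BMP7, a bone morphogenetic protein, stood at -1.02 with all values under background. Across the 7 lists, 2 of 85 distinct genes passed as deposited, against 52 of all 12381 genes tested. The count was 12 after quantile normalization (8 higher and 4 lower, JUN, JUNB, FOSL1, FHL2, FILIP1L and CDC6 among them). There 465 of all genes passed, so the count rose over all genes as well. With an ordinary t statistic 0 list genes passed (7 at an unadjusted p under 0.05, against 979 of all genes). The calls of TEAD4 and NT5E were lost with an ordinary t statistic and with line left out of the model, where 1 and 0 of all genes passed.

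Genes most like CCN1 and CCN2 in profile were sought by the distance between values over the 4 arrays after each gene's own mean was taken off, which uses the mimic changes and the line difference together. Nearest to CCN1 was JUN (distance 0.45 in log2), with changes of 1.55 in Li-7 cells and 2.80 in HEP-G2 beside 1.17 and 2.95 for CCN1. TNFRSF12A, the receptor of TWEAK (0.85), MSANTD3 (0.86), UBASH3B, a phosphatase of signalling receptors (0.90), and KLF10, a TGF-beta inducible factor (0.95), came next. Nearest to CCN2 were SC5D, an enzyme of cholesterol synthesis (0.26), CDHR2, a protocadherin of the brush border (0.40), RORA, a nuclear receptor (0.44), AMHR2 (0.49) and TSPAN14, a tetraspanin (0.50). All 4 AMHR2 values lay under background, and CDHR2 and RORA lay above it on the HEP-G2 mimic array alone. JUN lay under it on both HEP-G2 arrays. The 2 sets of 5 could share no gene, since CCN1 and CCN2 lay 5.66 apart, far beyond the distances above. Among the 9 target genes, CRIM1 and F3 were the closest pair (0.91) and CCN2 and AXL the farthest (8.53). With 4 arrays such likeness is a description only.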

How the data were processed

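The table deposited by the authors holds 1 summarised value per probe set and array, read as log2 from the range (1.48 to 18.3). Per the submitters' processing notes, Affymetrix Expression Console and Transcriptome Analysis Console were used. Background correction, normalization, summarisation, log base and genome build are not given in the sources that were used, so folds are on the deposited scale. Of 24351 probe sets, 17709 carried 1 gene name and 0 carried several. Symbols were updated through Entrez identifiers (RefSeq, GRCh38.p14). The brightest probe set by mean stood for a gene, and genes from the 30th percentile of mean value upwards (4.90) were kept.

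No further normalization was applied, and R 4.3.3 with limma 3.58.1 was used. A linear model with line and treatment (lmFit and eBayes, 5.85 prior and 1 residual degrees of freedom) was fitted over all 12381 genes, with Benjamini-Hochberg adjustment and a threshold of 0.05. Its p-values rest on how unlike the lines responded, over all genes more than in the gene itself, since no replicate cultures were measured. The fit was tested on simulated data, where the share of false calls lay above the threshold in most runs. Changes in 1 line are differences of single arrays, counted at 2-fold.

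The members, the gene lists and the alternatives were chosen with earlier results of these data known. Genes named in the text were the 10 members, HMGA1, YAP1, WWTR1 and the TEAD factors, in each list the genes that passed and the 4 with the largest mean change, and the 5 nearest genes to CCN1 and CCN2. Alternatives were 3 normalizations, the mean of probe sets, 2 other filters, other variance models, a model without the other factor and a 1.5-fold limit. A common floor at 8.72 was added after seeing the data.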

Additional observations from a re-analysis of the deposited data

Results flagged for a closer look

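For 4 of the 9 target genes the single mimic-minus-control differences had opposite signs in the lines, and the difference was not tested because each line had 1 array per treatment. The HEP-G2 change minus the Li-7 change was 3.93 for ANKRD1, 2.19 for CCN2 and 1.93 for F3, which were higher with the mimic in HEP-G2, and -1.86 for ARHGEF17, which was higher with the mimic in Li-7. All 4 ARHGEF17 values and 3 of the 4 F3 values lay under background (the mark set by the negative control probe sets), while ANKRD1 and CCN2 lay above it on all arrays. The Li-7 changes of F3 (-0.09), ANKRD1 (-0.35) and CCN2 (-0.40) were small, so their sign rests on little.

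Among the other genes described, opposite signs were also seen, untested, for the cofactor VGLL3 (3.11, both HEP-G2 values under background), for TNC (-2.82, with the Li-7 mimic value alone above background) and for TEAD3 (0.61, with the HEP-G2 mimic value alone above background). In all, 26 of the 85 genes of the pathway lists had opposite signs (30.6%), against 34.9% of all genes tested. SOX9 (-2.03) and MYC (-1.49), transcription factors listed as targets, lay above background on all arrays and were picked out after their values were seen.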

How the results depend on the processing

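Under quantile normalization, median centring, cyclic loess and the mean of probe sets, the median change of the 9 target genes ran from 0.92 to 0.95 in Li-7 cells and from 1.34 to 1.47 in HEP-G2, and the counts at least 2-fold higher were 3 and 6. With the common floor the medians were 0 in Li-7 cells and 0.40 in HEP-G2, and 3 genes were at least 2-fold higher in HEP-G2, as the floor sets values near background equal. At a 1.5-fold limit 5 genes counted as higher in Li-7. The shares of all genes at that floor and at that limit are not given here, so nothing is read from these counts. The 52 genes called for the mimic over both lines (80.8% lower) became 465 after quantile normalization (58.7% lower), 23 after cyclic loess, 366 with a filter at the 50th percentile (65.3% lower), 411 with an intensity trend (61.6% lower), 1 with an ordinary t statistic, and 0 in limma without line in the model (182 at an unadjusted p under 0.05). In the same settings the 2 calls among the pathway lists became 12 (quantile), 10 (filter), 12 (trend), 0 (ordinary t, 7 unadjusted) and 0 (limma without line, 4 unadjusted). The 5 target genes called between the lines became 0 with an ordinary t statistic and 3 without treatment in the model, and were the same genes in the other 8 settings. The cause was not tested. The reported model compares mimic with control within each line, and the model without line leaves that pairing out. The labels give no replicate numbers that could serve as a further block. Signal near background limits CCN1 and AXL in HEP-G2, F3 in both lines, and ARHGEF17 and FJX1 throughout.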
